A study of Mus musculus with 10 samples.

Results

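The fatty acid synthesis genes of the mouse lung were followed through 10 genes picked by symbol: Fasn, Scd1, Scd2, Acaca, Acly, Elovl1, Elovl6, Srebf1, Me1 and Acsl4. All 10 were found among the 24421 genes of the count table, and all 10 had enough counts to be tested. A set of 5 libraries came from NTCU-induced lung squamous cell carcinoma (SCC) and 5 from normal lung, all of NIH Swiss mice of wild-type genotype. NTCU is a nitrosourea carcinogen, and the normal lungs carry the treatment label none. RNA was taken from areas cut by laser from fixed, paraffin-embedded sections and sequenced as total RNA. The labels give neither age nor which animal a library came from, so the p-values measure the spread between libraries, which may be technical, and would be too small if libraries share an animal.

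Fatty acids are built in the cytosol from acetyl-CoA. ATP citrate lyase (Acly) makes acetyl-CoA from citrate, acetyl-CoA carboxylase (Acaca) turns it into malonyl-CoA, and fatty acid synthase (Fasn) joins these units into palmitate with NADPH, part of which comes from malic enzyme (Me1). Elongases (Elovl6, Elovl1) lengthen the chain, stearoyl-CoA desaturases (Scd1, Scd2) insert a double bond, and acyl-CoA synthetases (Acsl4, which prefers arachidonic acid) attach free fatty acids to coenzyme A. Srebf1 encodes SREBP1, a transcription factor that switches on most of these genes. In the lung the alveolar type 2 cell runs this pathway for surfactant, whose main lipid is dipalmitoyl phosphatidylcholine, and many carcinomas are also known for active lipid synthesis.

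Libraries held 1004105 to 3691806 counts in SCC and 1457641 to 6817106 in normal lung. Markers fitted the labels: the summed level of 10 squamous markers was 991 to 7268 CPM (counts scaled to a common library total) in SCC and 22.0 to 50.8 CPM in normal lung, where Krt6a, Krt13 and Dsg3 had no count. Krt5, the basal keratin, had 201 to 1486 CPM in SCC and 0 to 5.49 CPM in normal lung. The summed level of 12 alveolar type 2 markers was 866 to 1446 CPM in SCC and 9513 to 12666 CPM in normal lung, and all 12 were called lower. SCC 1, SCC 3 and SCC 4 stood apart. Chemosensory receptor genes, which neither tissue is known to use, had 3.27, 3.30 and 3.50 CPM per kb of coding length in SCC 1, SCC 3 and SCC 4, against 0.595 and 0.413 in SCC 2 and SCC 5 and 0.0421 to 0.209 in normal lung. Results are therefore also given for a low-signal fit (SCC 2 and SCC 5 against normal lung), for a high-signal fit (SCC 1, SCC 3 and SCC 4 against normal lung) and for a subtracted fit, in which a background proportional to transcript length was taken off. The background came to 18.7%, 21.3% and 21.9% of the counts in SCC 1, SCC 3 and SCC 4, and to at most 3.71% in any other library.

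Of the 10 genes, 5 were lower in SCC (Scd1, Scd2, Acsl4, Fasn and Elovl1) and 0 were higher at an adjusted p under 0.05 (edgeR quasi-likelihood test with Benjamini-Hochberg adjustment over 13203 genes). Across all tested genes, 8.68% were called lower and 12.5% higher. The DESeq2 Wald test also called 5 lower and 0 higher, and without adjustment 1 gene, Me1, passed the edgeR test as higher. The median log2 fold change was -0.93 over the 10 genes and 0.07 over all genes tested. For Fasn, Scd1 and Scd2 every SCC library lay below every normal library, which held for 5.77% of all tested genes, and for 0 of the 10 did every SCC library lie above every normal one, against 8.81% of all. In bulk samples, fewer cells of a type and less RNA per cell cannot be told apart. The summed level of the alveolar type 2 markers, given above, was lower in SCC, as were 5 of the 10 genes. Its part in the fall of those 5 genes was not tested.

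**Figure D1:**
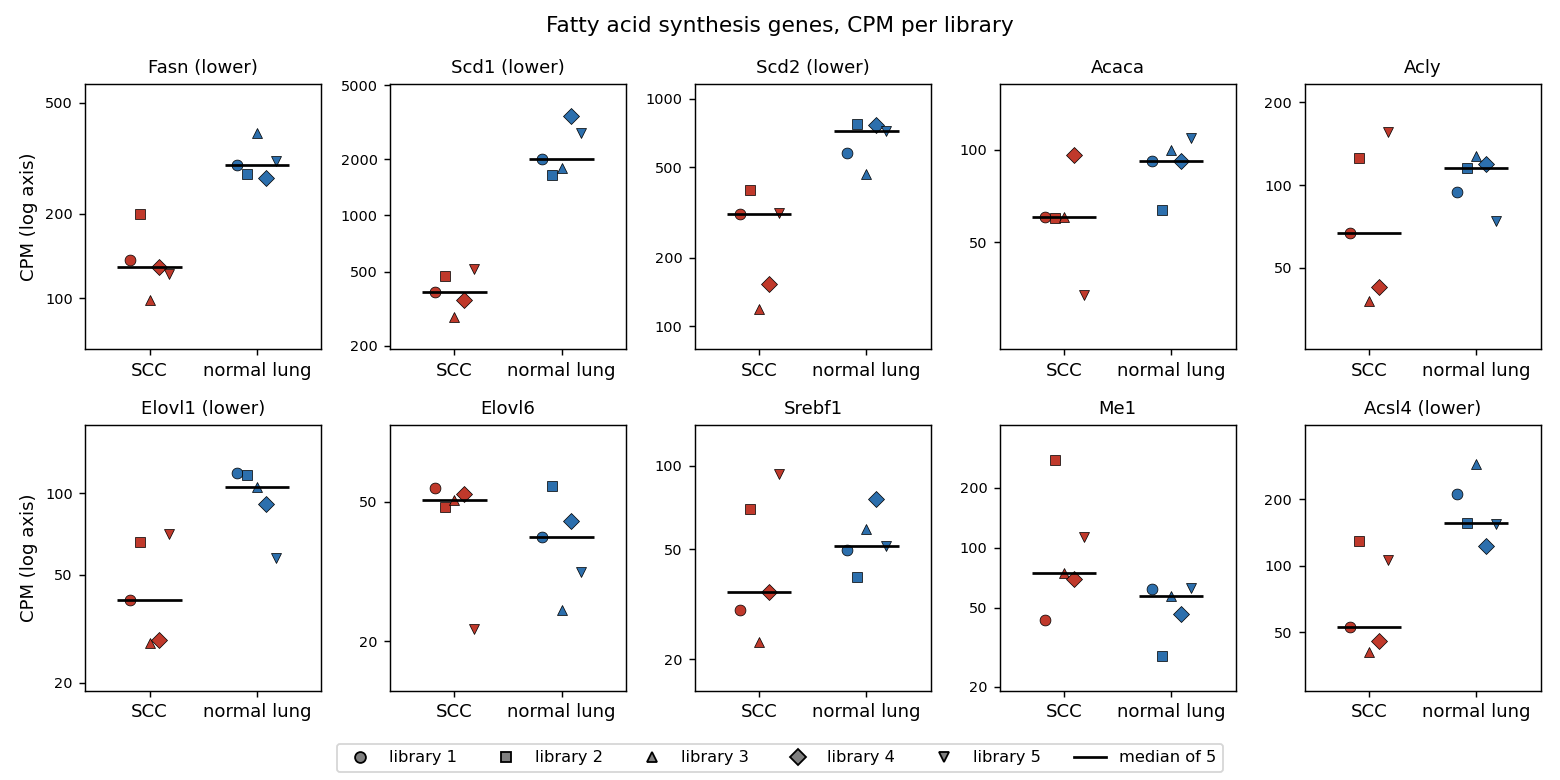
CPM per library on log axes for the 10 genes, SCC in red and normal lung in blue, with marker shapes for libraries 1 to 5 and a black line for the median. The groups do not overlap for Fasn, Scd1 and Scd2, and Me1 is highest in SCC 2 at 276 CPM.

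The largest change of the 10 genes was that of Scd1. This gene, the main stearoyl-CoA desaturase of liver and fat (chromosome 19, 44394455 to 44407879, minus strand, GRCm38), had 387, 473, 286, 350 and 517 CPM in SCC 1 to SCC 5, against 2011, 1644, 1807, 3405 and 2765 CPM in normal 1 to normal 5. The highest SCC library, SCC 5, lay below the lowest normal one, normal 2. Scd1 averaged 403 ± 93.3 CPM in SCC and 2327 ± 740 CPM in normal lung (SD, n = 5 each), a log2 fold change of -2.66 (SE 0.45, edgeR adjusted p = 0.000109). Scd2, the form known from brain and from early postnatal tissues (chromosome 19, 44293674 to 44306864, plus strand), had 312, 394, 118, 152 and 313 CPM in SCC and 574, 776, 466, 764 and 721 CPM in normal lung. SCC 3 and SCC 4 were the lowest. Its log2 fold change was -1.49 (SE 0.41, edgeR adjusted p = 0.0102), and in the low-signal fit it missed the threshold (-1.04, adjusted p = 0.0556).

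Scd1 fell further than Scd2, so the make-up of desaturase counts differed between the groups. Scd1 took 55.3%, 54.6%, 70.7%, 69.6% and 62.3% of the Scd1 and Scd2 counts in SCC 1 to SCC 5, and 77.8%, 67.9%, 79.5%, 81.7% and 79.3% in normal 1 to normal 5. The share was lower in SCC, by a difference of -14.7 percentage points (exact two-sided permutation p = 0.0238, adjusted p = 0.0357 over 3 shares, n = 5 each). SCC 3 and SCC 4 overlapped with normal 2, and with the high-signal libraries the difference was -12.004 points (exact permutation p = 0.0536). The 4 mouse Scd genes lie side by side and resemble each other, so counts may be shared among them, and the sources used here do not say how such reads were treated.

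The other desaturase paralogs, Scd3 (known from skin and the Harderian gland) and Scd4 (known from heart), went the opposite way. Scd3 had 52.8, 16.0, 52.3, 50.8 and 22.9 CPM in SCC, above the 2.05 to 7.72 CPM of every normal library. Its log2 fold change was 3.16 (SE 0.62, edgeR adjusted p = 0.000544), 3.57 in the subtracted fit (adjusted p = 0.0023) and 2.18 in the low-signal fit (adjusted p = 0.152). Scd4 had 40.5, 4.06, 36.9, 42.8 and 0.817 CPM in SCC, against 0 to 5.13 CPM in normal lung, so that only the SCC libraries of high receptor signal stood above normal lung. It was called higher with all libraries (3.12, adjusted p = 0.0181), was at -0.21 in the low-signal fit (adjusted p = 0.957), and lost its call when SCC 1, SCC 3 or SCC 4 was left out (adjusted p = 0.0537 to 0.0654). Scd3 and Scd4 together took 11.8%, 2.26%, 18.1%, 15.7% and 2.77% of Scd family counts in SCC, and 0.0983% to 0.366% in normal lung. Compared after the values were seen, this share was 9.89 points higher in SCC (exact two-sided permutation p = 0.00794, the smallest that relabelings can give, n = 5 each), and 2.29 points higher with the low-signal libraries (exact permutation p = 0.0476, the smallest possible there). Leaving out any 1 normal library ended the call (exact permutation p = 0.0556), while the difference stayed at 9.86 to 9.93 points. Leaving out any 1 SCC library kept the call (exact permutation p = 0.00794), at 7.91 to 11.9 points.

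**Figure D2:**
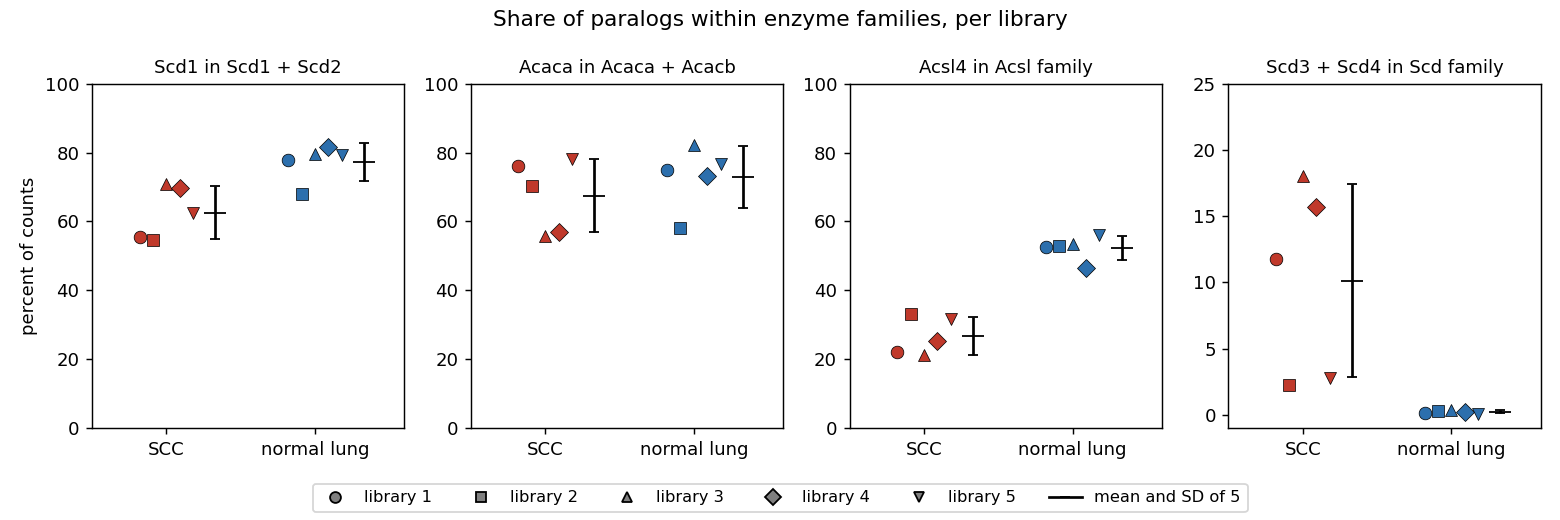
Share of counts within enzyme families per library, in percent, SCC in red and normal lung in blue, where black bars give mean and SD (n = 5), with a smaller scale in the right-hand panel. Acsl4 takes 21.3% to 33.2% of Acsl counts in SCC and 46.4% to 55.9% in normal lung, with no overlap.

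Fasn, the synthase that makes palmitate (chromosome 11, 120805846 to 120824547, minus strand), had 137, 199.9, 98.5, 129 and 122 CPM in SCC and 299, 278, 389, 268 and 308 CPM in normal lung. The highest SCC library, SCC 2, stayed under the lowest normal one. Fasn averaged 137 ± 37.8 CPM in SCC and 308 ± 48.1 CPM in normal lung (SD, n = 5 each), a log2 fold change of -1.29 (SE 0.35, edgeR adjusted p = 0.00847). Along with Scd1, it passed the test in the low-signal fit (-1.07, adjusted p = 0.0463), where 5.16% of all genes were called lower. Acaca, the carboxylase one step earlier (chromosome 11, 84129672 to 84401651, plus strand), had 60.3, 60.1, 60.6, 96.6 and 33.5 CPM in SCC and 92.3, 63.6, 100.04, 92.2 and 109.8 CPM in normal lung. SCC 4 lay among the normal libraries and the difference of -0.69 (SE 0.36) did not pass (edgeR adjusted p = 0.181). The estimated background made up 51.6% and 51.8% of the Acaca counts in SCC 1 and SCC 3, the highest shares for this gene. Acaca took 67.5% ± 10.5 of Acaca and Acacb counts in SCC and 73.0% ± 8.97 in normal lung (SD, n = 5 each, exact two-sided permutation p = 0.357, adjusted p = 0.357 over 3 shares). Acacb, the mitochondrial form that restrains fatty acid oxidation, stood at -0.08 (edgeR adjusted p = 0.934), with background at 47.9% of its SCC counts.

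Acsl4 (chromosome X, 142317993 to 142390535, minus strand) had 52.8, 129, 40.7, 45.8 and 106 CPM in SCC and 210.5, 157, 289.6, 123 and 155 CPM in normal lung. SCC 2 lay just above normal 4, and the other SCC libraries lay below every normal one. The log2 fold change was -1.41 (SE 0.39, edgeR adjusted p = 0.0107), and -0.79 in the low-signal fit (adjusted p = 0.213). Within its family, Acsl4 was a smaller part in every SCC library than in any normal one. Its share of Acsl counts was 22.0%, 33.2%, 21.3%, 25.3% and 31.5% in SCC 1 to SCC 5, and 52.7%, 52.8%, 53.4%, 46.4% and 55.9% in normal 1 to normal 5. The difference of -25.6 percentage points was called (exact two-sided permutation p = 0.00794, adjusted p = 0.0238 over 3 shares, n = 5 each), and it was -19.8 points with the low-signal libraries and -25.9 points in subtracted counts. The other tested synthetases did not pass the edgeR test. Acsl1, the form of liver, fat and heart, averaged 69.5 ± 23.3 CPM in SCC and 59.6 ± 17.8 CPM in normal lung (adjusted p = 0.88). Acsl5, a form of gut, averaged 85.9 ± 36.5 CPM in SCC and 95.0 ± 44.3 CPM in normal lung (adjusted p = 0.725). Acsl3 averaged 26.4 CPM in SCC and 11.8 CPM in normal lung (log2 fold change 1.07, adjusted p = 0.228). Acsl6 had too few counts to be tested with all libraries. It averaged 10.7 CPM in SCC, where the background estimate was 125% of its counts, and 2.86 CPM in normal lung.

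Of the elongases, Elovl1, which extends saturated chains to very long ones (chromosome 4, 118428093 to 118432953, plus strand), had 40.5, 65.8, 28.1, 28.9 and 70.6 CPM in SCC and 119, 117, 105, 91.4 and 57.6 CPM in normal lung. Normal 5 lay among the SCC values. Its log2 fold change of -1.16 (SE 0.38, edgeR adjusted p = 0.03) was the weakest of the 5 calls, and it was lost in the low-signal fit (-0.64, adjusted p = 0.391), in the subtracted fit (-0.95, adjusted p = 0.0954), with a filter of 1 CPM in 5 libraries (adjusted p = 0.0561) and without SCC 1, SCC 3, SCC 4 or normal 1 (adjusted p = 0.0508 to 0.0778). Elovl6, which takes palmitate to stearate (chromosome 3, 129532355 to 129638495, plus strand), had 54.7, 48.5, 50.6, 52.8 and 21.6 CPM in SCC and 39.7, 55.4, 24.5, 43.98 and 31.6 CPM in normal lung. The groups overlapped throughout and the difference was 0.08 (SE 0.41, edgeR adjusted p = 0.917), with a sign that changed between settings.

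Promoter windows from RefSeq (GRCm38.p6) were at hand for 8 of the 10 genes; Scd1 and Scd2 were not among them. Those of the other genes called lower are printed for comparison, with Me1 as the member that was highest relative to normal lung. Where a gene has several starts the outermost is shown. Each run holds the 250 bases before the annotated start, 5′ to 3′ on the gene's strand, with capitals marking CCAAT (the NF-Y motif) or GGGCGG (the Sp1 motif) on either strand. They lie at chr11:120824548-120824797 (Fasn, minus strand), chrX:142390536-142390785 (Acsl4, minus strand), chr4:118427843-118428092 (Elovl1, plus strand) and chr9:86695915-86696164 (Me1, minus strand).
Fasn: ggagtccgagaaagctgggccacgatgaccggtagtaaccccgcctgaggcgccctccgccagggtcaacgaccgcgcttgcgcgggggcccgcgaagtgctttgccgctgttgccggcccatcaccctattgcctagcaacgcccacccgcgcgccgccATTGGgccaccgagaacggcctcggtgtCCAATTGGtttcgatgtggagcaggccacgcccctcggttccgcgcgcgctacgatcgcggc
Acsl4: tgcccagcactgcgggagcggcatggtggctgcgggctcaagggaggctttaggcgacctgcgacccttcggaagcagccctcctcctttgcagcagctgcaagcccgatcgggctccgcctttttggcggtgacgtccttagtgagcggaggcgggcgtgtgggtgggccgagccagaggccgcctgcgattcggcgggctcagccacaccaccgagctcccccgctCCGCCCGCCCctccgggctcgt
Elovl1: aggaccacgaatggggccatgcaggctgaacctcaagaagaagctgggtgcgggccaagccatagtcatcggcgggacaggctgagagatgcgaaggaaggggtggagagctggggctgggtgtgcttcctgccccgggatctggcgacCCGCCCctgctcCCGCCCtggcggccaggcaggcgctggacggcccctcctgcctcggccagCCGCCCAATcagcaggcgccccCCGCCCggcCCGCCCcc
Me1: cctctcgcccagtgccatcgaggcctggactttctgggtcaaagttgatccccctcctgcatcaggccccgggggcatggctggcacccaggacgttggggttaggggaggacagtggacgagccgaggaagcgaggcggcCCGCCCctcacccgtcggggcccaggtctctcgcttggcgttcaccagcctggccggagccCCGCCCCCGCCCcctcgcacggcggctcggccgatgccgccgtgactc
The Fasn window held 3 CCAAT matches, at -90, -62 and -59 from the start (first base of each on the printed strand), the last overlapping the one before it. The Elovl1 window held 5 GGGCGG matches and 1 CCAAT match that overlaps a GGGCGG match, Acsl4 held 2 overlapping GGGCGG matches and Me1 held 3. Among 32851 windows of the same length, 33.8% held CCAAT and 32.7% held GGGCGG. The core of the sterol regulatory element, searched as TCACNCCAC on both strands, was in 0 of the 12 windows of these genes and in 1.05% of all windows, and the E box CACGTG was in 0 of the 12 and in 6.02% of all. A match or its absence describes these letters only.

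Acly and Srebf1 did not pass the test with all libraries, and their values lay on opposite sides of 0 in the low-signal and high-signal fits. Acly (chromosome 11, 100476353 to 100528000, minus strand) had 66.9, 125, 38.0, 42.8 and 156 CPM in SCC and 94.1, 116, 128, 119.6 and 74.1 CPM in normal lung. SCC 5 lay above every normal library, SCC 2 lay within the normal range, and the other 3 lay below every normal library. Its log2 fold change was -0.40 with all libraries (SE 0.40, edgeR adjusted p = 0.53), 0.28 in the low-signal fit (adjusted p = 0.723) and -1.49 in the high-signal fit (adjusted p = 0.00151). Srebf1 (chromosome 11, 60199089 to 60222581, minus strand) had 30.2, 69.9, 23.1, 34.9 and 93.5 CPM in SCC and 49.4, 39.6, 58.8, 76.0 and 51.5 CPM in normal lung. SCC 5 was the highest of all 10 libraries. The values were -0.22 (SE 0.42, adjusted p = 0.763) with all libraries, 0.45 (adjusted p = 0.615) in the low-signal fit, and -1.29 (adjusted p = 0.0147) in the high-signal fit, where the background estimate reached 43.2% to 61.3% of the Srebf1 counts.

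Me1, the malic enzyme that yields cytosolic NADPH (chromosome 9, 86581371 to 86695953, minus strand), had the highest fold change of the 10. It had 43.4, 276, 74.3, 69.7 and 114 CPM in SCC and 62.3, 28.7, 57.2, 46.3 and 63.1 CPM in normal lung. SCC 2 to SCC 5 lay above every normal library and SCC 1 lay within the normal range. Me1 averaged 115 ± 93.3 CPM in SCC and 51.5 ± 14.4 CPM in normal lung (SD, n = 5 each), and the log2 fold change of 1.05 (SE 0.43) missed the threshold (edgeR adjusted p = 0.0851). With SCC 2 and SCC 5 alone it passed (1.77, adjusted p = 0.00508), in a fit where 4.14% of all genes were called higher, and it also passed without SCC 1 (1.23, adjusted p = 0.0444). It was at 0.45 without SCC 2 (adjusted p = 0.445) and at -0.080 in the high-signal fit (adjusted p = 0.886). In CPM, SCC 3 and SCC 4 of that fit lay above every normal library. The fits rescale libraries by TMM, and the CPM values do not.

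**Figure D3:**
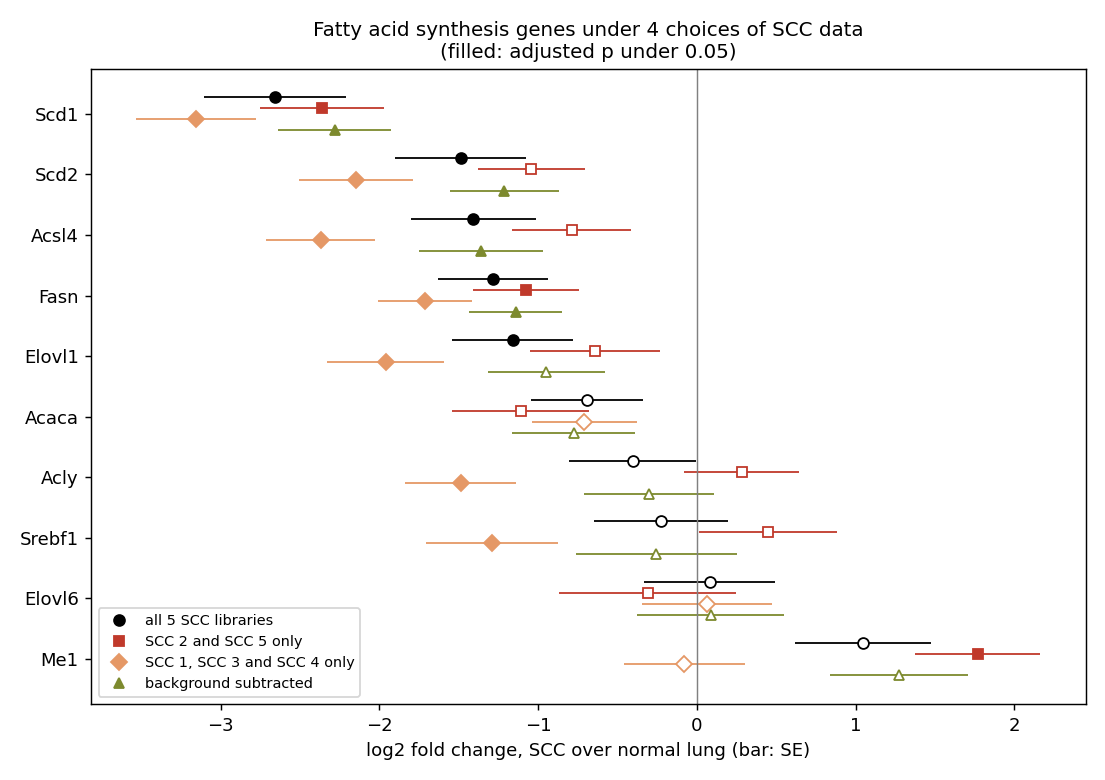
Log2 fold change (SCC over normal lung) with its SE for the 10 genes under 4 choices of SCC data, filled where the adjusted p was under 0.05. Scd1 and Fasn are filled under all 4 choices, while Acly, Srebf1, Me1 and Elovl6 change side between the low-signal and high-signal fits.

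The SCC libraries thus fell into sets for this pathway as well. In CPM, 7 of the 10 genes (Scd1, Scd2, Acly, Elovl1, Srebf1, Me1 and Acsl4) were higher in both SCC 2 and SCC 5 than in SCC 1, SCC 3 and SCC 4, and 2 (Acaca and Elovl6) were lower in both, whereas 20.7% and 27.0% of all tested genes showed these orders. With the background subtracted 6 of the 10 (Scd2 no longer among them) kept the first order and 0 the other, against 28.4% and 14.8% of all genes. These sets were defined by receptor signal, and the order was described after the values were seen, without a test. Against normal lung, 2 of the 10 were called lower and 1 higher in the low-signal fit, 7 lower and 0 higher in the high-signal fit (18.9% and 24.7% of all genes), and 4 lower and 0 higher in the subtracted fit (6.90% and 8.16% of all genes). The high-signal fit also moved the median of the shared genes by -0.21 on the log2 scale, to which its values are relative.

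Per kb of the longest annotated coding transcript, Scd1 led in both groups, with 83.3 ± 19.3 CPM per kb in SCC and 481 ± 153 CPM per kb in normal lung (SD, n = 5 each), followed by Scd2 with 47.3 ± 21.5 in SCC and 121 ± 24.8 in normal lung. In normal lung the ranges of Scd1 and Scd2 did not overlap with each other or with the next gene, Elovl1 (54.1 ± 13.9 CPM per kb), while in SCC each gene's range overlapped with that of its neighbour in the order. Me1 came next after Scd2 in SCC with 35.1 ± 28.4 CPM per kb, and after Acly in normal lung with 15.7 ± 4.38 CPM per kb. Acaca and Elovl6 were the lowest in both groups, with means of 6.54 and 7.67 CPM per kb in SCC and 9.63 and 6.56 CPM per kb in normal lung.

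Of 26 partner enzymes and cofactors of lipogenesis, 19 were tested, 2 were higher (Scd3 and Scd4) and 2 lower, with a median log2 fold change of -0.11 over the list. Of all tested genes, 12.5% were higher and 8.68% lower. Mid1ip1, a protein that activates acetyl-CoA carboxylase, had 29.2, 77.5, 33.6, 41.8 and 37.6 CPM in SCC and 149, 103, 174, 115 and 121 CPM in normal lung, and fell by 1.70 on the log2 scale (SE 0.36, edgeR adjusted p = 0.00118). Fads3, a desaturase of the fatty acid desaturase cluster, averaged 28.4 ± 19.2 CPM in SCC and 96.5 ± 17.7 CPM in normal lung (SD, n = 5 each; log2 fold change -1.91, edgeR adjusted p = 0.00295), and missed the threshold in the low-signal fit (-1.81, adjusted p = 0.0653). The delta-5 desaturase Fads1 (-1.13, adjusted p = 0.0599), the delta-6 desaturase Fads2 (0.05, adjusted p = 0.963) and the polyunsaturate elongase Elovl5 (-0.90, adjusted p = 0.167) did not pass. Fads1 was at 120.04 CPM in SCC 5, within the normal range of 72.5 to 131 CPM, and at 21.7 to 42.4 CPM in the other SCC libraries. Mlxipl (ChREBP, the glucose-sensing lipogenic factor) and Thrsp (a lipogenic partner of Mid1ip1) were under the filter on low counts with all libraries. The high-signal fit called Mlxipl (2.81, edgeR adjusted p = 0.00337) and Thrsp (2.36, edgeR adjusted p = 0.0335) higher, as it did 24.7% of all genes. Thrsp had 28.3, 1.35, 16.0, 7.97 and 0.817 CPM in SCC and 0.686 to 5.28 CPM in normal lung, with background at 27.9% of its SCC counts. Mlxipl had 28.3, 1.63, 34.1, 25.9 and 0.817 CPM in SCC and 1.93 to 5.01 CPM in normal lung, highest where the receptor signal was high, with background estimated at 46.5% of its SCC counts.

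Among regulators and targets of SREBP and LXR, edgeR and the DESeq2 Wald test each called 1 of 15 tested genes lower and 0 higher, with no further gene passing without adjustment. Over all tested genes, edgeR called 8.68% lower and 12.5% higher. The listed gene called lower was Lpcat3, an LXR target that puts polyunsaturated chains into phospholipids (-1.31, SE 0.44, edgeR adjusted p = 0.0351). It lost its call in the low-signal fit (-0.99, adjusted p = 0.304) and in the subtracted fit (-1.28, adjusted p = 0.125). Srebf2, the cholesterol-directed relative of Srebf1, had 123.5, 87.5, 61.7, 38.8 and 233 CPM in SCC and 58.7 to 89.1 CPM in normal lung (0.39, adjusted p = 0.566). Insig1, which holds SREBP in the endoplasmic reticulum, stood at -0.48 (adjusted p = 0.472).

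Of 10 genes that supply NADPH, 2 were higher and 0 lower (1 lower without adjustment, and 0 by the DESeq2 Wald test), with a median of 0.39. The edgeR shares over all tested genes were 12.5% higher and 8.68% lower. G6pdx, the entry enzyme of the pentose phosphate pathway, had 93.3, 151, 63.9, 24.9 and 175 CPM in SCC and 26.1, 40.3, 27.7, 33.9 and 7.55 CPM in normal lung. SCC 4 lay within the normal range and the others lay above it. Its log2 fold change was 1.80 (SE 0.48, edgeR adjusted p = 0.0084), with 2.45 in the low-signal fit (adjusted p = 0.0014) and no call in the high-signal fit (0.79, adjusted p = 0.22). Me3, a mitochondrial malic enzyme, had 86.7, 19.2, 113, 137 and 19.6 CPM in SCC and 2.64 to 13.0 CPM in normal lung (3.33, SE 0.61, edgeR adjusted p = 0.000286). It was highest in SCC 1, SCC 3 and SCC 4, at 1.37 in the low-signal fit (adjusted p = 0.405) and at 3.86 in the subtracted fit (adjusted p = 0.0017).

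Phospholipid and surfactant lipid genes had 3 of 13 lower and 0 higher (1 higher without adjustment, 0 by the DESeq2 Wald test), with a median of -0.67. By edgeR, 8.68% of all tested genes were lower and 12.5% higher. Lpcat1, which makes the dipalmitoyl form of surfactant phosphatidylcholine, averaged 11.99 ± 6.24 CPM in SCC and 113 ± 32.6 CPM in normal lung (-3.31, edgeR adjusted p = 5.00e-06). Abca3, the lipid pump of lamellar bodies, had 60.8 to 114 CPM in SCC and 386 to 496 CPM in normal lung (-2.56, adjusted p = 1.66e-05), and Chpt1, a cholinephosphotransferase, was at -3.18 (adjusted p = 3.27e-05) with background at 45.5% of its SCC counts. Lpcat1 and Abca3 were also among the 12 alveolar type 2 markers, so their calls count in both lists. Of these 12 markers, Slc34a2, a phosphate carrier, was at -4.20 and Lamp3, a lamellar body protein, at -3.63. Sftpc, the defining surfactant protein of these cells, had 75.9 to 238 CPM in SCC and 2554 to 4916 CPM in normal lung. Its log2 fold change was -4.59, and the list's median was -3.47. The 12 markers ran from Sftpc at -4.59 to Lyz2 at -1.42, and 5 of them (Abca3, Sftpd, Napsa, Etv5 and Lyz2) were nearer to 0 than Scd1 at -2.66. The other fatty acid synthesis genes called lower changed less than Scd1. Acsl4 at -1.41, Fasn at -1.29 and Elovl1 at -1.16 were nearer to 0 than all 12 markers, and Scd2 at -1.49 than all but Lyz2.

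**Figure D4:**
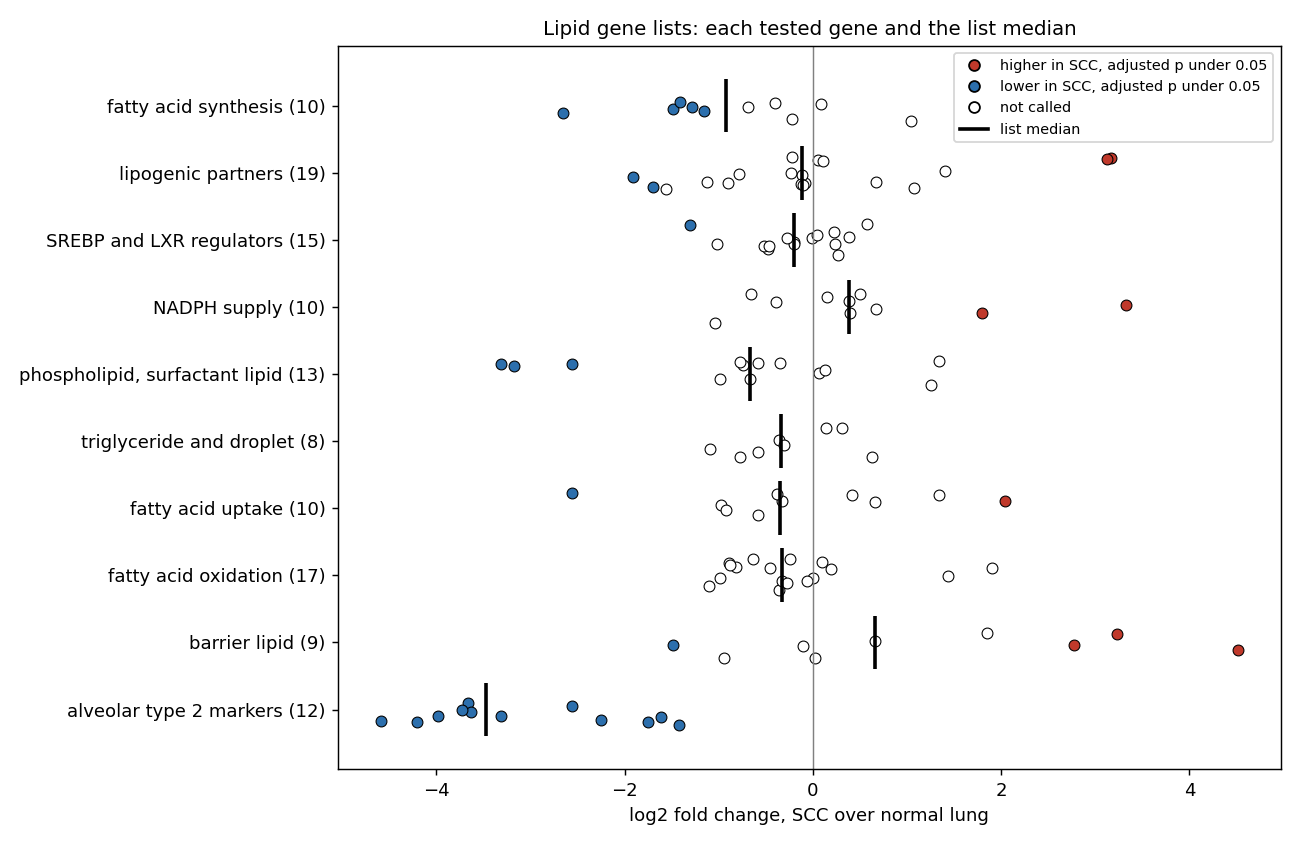
Log2 fold change (SCC over normal lung) of each tested gene in 10 lists, with the number tested in brackets, red and blue for calls at an adjusted p under 0.05, and black bars for list medians. The fatty acid synthesis median is -0.93 and the alveolar type 2 median -3.47, and the fatty acid oxidation list has no call by edgeR.

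Fatty acid uptake genes had 1 of 10 tested members lower and 1 higher, near the 8.68% and 12.5% of all tested genes. Cd36, a fatty acid translocase of capillary endothelium and macrophages, had 42.9 to 268 CPM in SCC and 578 to 758 CPM in normal lung (-2.56, SE 0.44, edgeR adjusted p = 0.000135). Slc27a1, a fatty acid transport protein, had 20.7 to 53.5 CPM in SCC and 1.16 to 12.3 CPM in normal lung (2.04, SE 0.63, adjusted p = 0.0208), and missed the threshold in the low-signal fit (2.39, adjusted p = 0.0613) and in the subtracted fit (2.16, adjusted p = 0.0622). Of 17 tested fatty acid oxidation genes edgeR called 0 in either direction, 1 passing without adjustment. Ppara, the transcription factor of fatty acid oxidation, missed the edgeR threshold (adjusted p = 0.0662) and was the 1 gene called higher by the DESeq2 Wald test (adjusted p = 0.019), with background at 27.6% of its SCC counts. Cpt1a, the gate of mitochondrial oxidation, was at -0.81 (edgeR adjusted p = 0.171). Of 8 tested triglyceride and lipid droplet genes 0 were called by edgeR or the DESeq2 Wald test and 2 were lower without adjustment, Mgll, a monoacylglycerol lipase, standing at -1.10 (adjusted p = 0.0882) and Pnpla2, the main triglyceride lipase, at -0.78 (adjusted p = 0.131).

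Lipid genes of the skin barrier, listed because the tumour is squamous, had 3 of 9 tested members higher and 1 lower, with a median of 0.66. The shares of all tested genes were 12.5% higher and 8.68% lower. Cers3, the ceramide synthase for very long chains, had 11.3, 20.9, 28.6, 36.8 and 24.5 CPM in SCC and 0 to 2.06 CPM in normal lung (4.51, SE 0.83, edgeR adjusted p = 0.000282), and passed in the low-signal fit (4.41, adjusted p = 0.0081). Pnpla1, an acylceramide enzyme, had 97.1, 11.6, 95.2, 90.6 and 6.94 CPM in SCC and 2.86 to 10.4 CPM in normal lung, so that SCC 5 lay within the normal range and SCC 2 just above it (3.23 with all libraries, adjusted p = 0.00101, and 0.53 in the low-signal fit, adjusted p = 0.824). Cyp4f39, an omega-hydroxylase of ultra-long chains, was at 2.78 (adjusted p = 0.024) with background at 38.2% of its SCC counts and no call in the low-signal fit (2.09, adjusted p = 0.346). Smpd1, the acid sphingomyelinase, was the member called lower (-1.49, adjusted p = 0.0155), also without a call there (-1.04, adjusted p = 0.252).

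Other cells that make or store lipid were followed by their markers. Fat cell markers summed to 17.3 to 109 CPM in SCC and 24.2 to 38.3 CPM in normal lung over 10 genes, with Retn at 0 in normal lung. The sums were 109, 98.5 and 105 CPM in SCC 1, SCC 3 and SCC 4, above every normal library, and 17.3 and 20.4 CPM in SCC 2 and SCC 5, below every normal library. Of 3 tested members 0 were called by edgeR, by the DESeq2 Wald test or without adjustment, Plin4 (0.86, adjusted p = 0.38) and Cidec (-0.36, adjusted p = 0.835) among them. The background estimate made up 80.4% of the SCC counts of Adipoq and 101% of those of Plin1, a lipid droplet protein that was called higher in the high-signal fit (2.89, edgeR adjusted p = 0.0318). Lipid-storing fibroblast markers summed to 332 to 534 CPM in SCC and 1557 to 1977 CPM in normal lung. Of these markers 5 of 7 were called lower, against 8.68% of all tested genes. Inmt at -4.61, Tcf21 at -3.42 and Npnt at -2.49 had the smallest p-values. The lipid droplet gene Plin2 (-0.58, edgeR adjusted p = 0.389) and Lpl (-0.32, edgeR adjusted p = 0.567) were not called. Alveolar macrophage markers summed to 106 to 558 CPM in SCC and 269 to 504 CPM in normal lung. Of 8 tested, 1 was called lower, near the 8.68% of all tested genes. This marker was Car4 at -4.26, a gene that capillary endothelium also expresses. The part of these cells in the fatty acid synthesis results was not tested.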

How the data were processed

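Deposited values were whole-number counts of reads for each gene, not normalized by the authors. The build was mm10 and the tools included HTSeq 0.6.1, TopHat2 2.0.1, cutadapt 1.9.1 and DESeq2, per the submitters' processing notes. Neither annotation nor strand setting is stated, so counts of paralogs and overlapping genes are uncertain.

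The edgeR 4.0.16 quasi-likelihood test (R 4.3.3, filterByExpr, TMM, robust, SCC over normal lung, no covariate) was adjusted by Benjamini-Hochberg over 13203 genes, and calls had an adjusted p under 0.05. The SE is the log2 fold change over the root of F. Shares were compared by exact permutation. DESeq2 1.42.0 and limma 3.58.1 served as alternatives, and the edgeR script was tested on simulated data. Transcript lengths were those of GENCODE M21 (24022 genes matched). The receptor signal used 1438 Olfr and Vmn genes, capped at their 98th percentile, and the background was this signal times length. No pair of libraries within a group agreed within sampling noise.

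Members and lists were chosen with earlier results of these data known. Named are the 10 members, preset pathway genes, and of each list up to 3 calls of smallest p in each direction, or 2 genes where none was called. Acsl1, Acsl3, Acsl5, Acsl6, Adipoq, Plin1, Plin2, Lpl, Retn and Selenbp1 were named after their values were seen.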

Additional observations from a re-analysis of the deposited data

Results flagged for a closer look

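Each of 28 sets of 5 values (the 10 genes and 4 shares, in SCC and in normal lung) was searched for a library far from the rest by Dixon's ratio, which by chance marks about 1 set in 20, and 2 were marked. Elovl6 stood at 21.6 CPM in SCC 5, where the other SCC libraries had 48.5 to 54.7 CPM. The Scd1 share of Scd1 and Scd2 counts was 67.9% in normal 2, where the other normal libraries had 77.8% to 81.7%.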

How the results depend on the processing

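With all libraries, 1645 genes were called higher and 1146 lower. These counts were 3551 higher with a filter of 1 CPM in 5 libraries, 5470 and 2072 with no filter, 3259 and 2766 with limma-voom, 592 and 738 in the low-signal fit, 3841 and 2927 in the high-signal fit (chosen after seeing the data), and 946 higher in the subtracted fit. Of the 10 fatty acid synthesis genes, 5 were lower and 0 higher with all libraries, with 2 and 1 in the low-signal fit, 7 and 0 with limma-voom, 6 and 0 with no filter, and 4 to 5 lower and 0 to 1 higher when each library was left out in turn. Scd1, Scd2, Fasn and Acsl4 were lower and called in each leave-one-out fit. The fit with no filter moved the median of shared genes by -0.39, the high-signal fit by -0.21, limma-voom by 0.10, and the fits without normal 1, normal 2, normal 4 or normal 5 by -0.17, -0.24, -0.16 and -0.24. The causes were not tested.

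Among changes of sign, Scd4 was called with all libraries, Me1 in the low-signal fit and without SCC 1, and Acly and Srebf1 in the high-signal fit. Elovl6 was at -0.0036 with 1 CPM in 5 libraries, -0.31 in the low-signal fit, -0.33 with no filter and -0.21 to 0.21 over leave-one-out fits. In the low-signal fit Acly was at 0.28, Srebf1 at 0.45, Scd4 at -0.21 and Plin4 at -0.83. In the high-signal fit Me1 was at -0.080, Acacb at 0.12, Srebf2 at -0.44, Fads2 at -1.16 and Cidec at 0.10. Under limma-voom Acacb was at 0.51, Srebf2 at -0.56, Fads2 at -0.68 and Cidec at 1.05. Fads2 was at -0.12 in the subtracted fit and -0.26 with no filter. Leave-one-out ranges were -0.64 to 0.12 for Acacb, -0.20 to 0.53 for Srebf2, -0.60 to 0.23 for Fads2 and -0.88 to 0.34 for Cidec. The Acaca share was 1.19 points higher in SCC in the low-signal fit and 2.25 points higher in the subtracted fit, and the Scd1 share was -12.004 points in the high-signal fit. Leave-one-out ranges were -17.1 to -12.7 points for the Scd1 share, -9.22 to -2.59 for the Acaca share and -27.2 to -24.2 for the Acsl4 share. No paired analysis was possible because the labels give no replicate numbers shared between the groups.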
